A study of Schizosaccharomyces pombe with 7 samples.

Results

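The zone described here is the stretch from 100 to 200 kb inside each end of chromosomes 1 and 2 of fission yeast, Schizosaccharomyces pombe. It was chosen by position alone. Its members are the non-control probes at array positions 100001 to 200000 on both chromosomes (1L and 2L, the left ends), 5374600 to 5474599 on chromosome 1 (1R, the right end) and 4310500 to 4410499 on chromosome 2 (2R). These are 1325 of the 41551 probes of the array, with 333 at 1L, 332 at 1R, 327 at 2L and 333 at 2R. After the removal of spots that the scanner software marked as non-uniform, 1144 of the 33704 probes kept lay in the zone. The question put to them was how far inward the histone mark of the subtelomeres reaches at each end.

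Dimethylated lysine in the tail of histone H3 (H3K9me2) was measured by ChIP on tiling arrays, with ChIP DNA in Cy5 and whole-cell extract in Cy3. Each value is the log2 ratio of both, relative to the median of its array, so 0 is the typical level of the genome. Wild-type (WT) cells were hybridised in series 1, 2 and 3, cells that lack the gene fft3 (fft3∆) in series 2 and 3, and UV21 cells, whose nature the labels do not give, in series 1 only. One further array holds Fft3-GFP ChIP in WT cells. All strains had grown in rich medium at 30 °C and were fixed in 3% paraformaldehyde, and chromatin was sheared to between 500 and 1000 bp. The Fft3-GFP cells had also been kept at 18 °C for 6 h beforehand and were treated with 10 mM dimethyl adipimidate afterwards, so that array differs in handling from the others. Nothing in the labels says whether the series came from separate cultures, and the spread between arrays may be technical. UV21 and Fft3-GFP have 1 array each and no replicate.

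H3K9me2 is written by the methyltransferase Clr4 and read by chromodomain proteins such as Swi6 and Chp2, which is how the mark can spread along the chromatin fibre. In fission yeast it covers the pericentromeres, the mating-type region and the subtelomeres, and it fades on the way from a chromosome end into the arm. Fft3 is a Snf2-family chromatin remodeller of the Fun30 type. Probe positions are those of the array, whose genome build is not given in the sources used here. Genes were placed on them through the RefSeq assembly ASM294v3, by the shift per arm at which its GC content correlated best with Cy3 signal. On chromosomes 1 and 2 these shifts ran from −1660 to 4500 bp, with correlations of 0.231 to 0.265. The zones alone gave best shifts 20 to 200 bp from that of their arm, with correlations of 0.277 to 0.442. Gene positions are thus approximate. Coordinates of sequences are those of the assembly, and positions of probes and windows those of the array. At 2R the assembly runs on for 31.0 kb beyond the last probe, so distances there are counted from the end of the array.

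WT series 3 had the most non-uniform spots in the zone, 7.02% of its probes, against 0.0755% to 4.53% on the other 5 H3K9me2 arrays. It was also the one array with saturated zone probes, 18 of them. No zone probe failed the test of being above background in Cy3 on any array. The arrays had been read with 2 extraction protocols of the scanner software. WT and fft3∆ of series 3 had one, and the remaining arrays had protocol 1200. This split is used below as a batch. In whole-cell extract, the probes of fft3 itself had a Cy3 signal of 0.303% and 0.378% of the array median on the fft3∆ arrays and 54.7% to 84.3% on the other arrays, as the labels say.

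By annotation there are 163 protein-coding genes, 235 long non-coding RNA genes, 2 tRNA genes and 3 LTRs of retrotransposons. No tRNA gene or LTR there has the 2 probes needed for a value of its own. Shown first are the 200 bases upstream of a zone gene at each of 1L, 1R and 2R. These genes had the highest WT H3K9me2 of their end, over the probes within them. Only genes whose annotated start lies before their coding sequence were taken. They are mfs2 (membrane transporter, 1L), isp5 (amino acid transporter, 1R) and adn2 (transcription factor, 2R), read 5′ to 3′ from RefSeq ASM294v3. Capitals mark the letters TATATA, searched on both strands.
mfs2, chr1:113796-113995, plus strand: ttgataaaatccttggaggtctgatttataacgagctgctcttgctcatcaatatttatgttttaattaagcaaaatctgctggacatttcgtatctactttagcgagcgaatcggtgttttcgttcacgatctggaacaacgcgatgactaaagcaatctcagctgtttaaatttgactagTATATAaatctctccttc
isp5, chr1:5466557-5466756, plus strand: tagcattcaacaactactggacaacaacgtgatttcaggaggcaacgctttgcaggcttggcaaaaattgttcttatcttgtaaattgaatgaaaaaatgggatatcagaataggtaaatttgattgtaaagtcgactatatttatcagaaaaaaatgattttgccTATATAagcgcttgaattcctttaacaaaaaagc
adn2, chr2:4402870-4403069, minus strand: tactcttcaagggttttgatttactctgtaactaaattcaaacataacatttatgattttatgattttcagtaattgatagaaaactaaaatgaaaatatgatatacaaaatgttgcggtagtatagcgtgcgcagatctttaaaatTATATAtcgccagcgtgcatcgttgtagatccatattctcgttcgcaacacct
TATATA occurs in 41 of the 155 upstream stretches of zone genes with enough probes, against 22.8% of the 5112 such stretches in the genome. GGTTAC, the core of the telomeric repeat, occurs in 9 of the 155 against 5.28% in the genome, and TGACGT, the core of the site bound by Atf1, in 8 of the 155 against 4.81%. Neither is in the 3 stretches shown. The median GC content of the stretches is 32.5% in the zone and 32.5% in the genome. A match is a description, not a bound site.

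Both tRNA genes of the zone are shown because tRNA genes are known to act as barriers to heterochromatin at the pericentromeres of this yeast. Capitals mark the B box of their internal promoter, searched on the sense strand as GTTCNANNC, which 91.2% of the 171 annotated tRNA genes hold.
SPATRNASER.04, tRNA-Ser, chr1:5437747-5437828, plus strand: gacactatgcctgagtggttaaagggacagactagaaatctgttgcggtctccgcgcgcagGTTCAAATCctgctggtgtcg
SPBTRNAGLY.03, tRNA-Gly, chr2:180994-181064, minus strand: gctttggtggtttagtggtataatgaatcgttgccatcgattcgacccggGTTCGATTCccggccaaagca
The tRNA-Ser gene lies 141.3 kb from the right end of chromosome 1. In the 5 windows of 2 kb around it, from 136 to 146 kb, the WT means were 0.90, 1.04, 0.80, 0.56 and 0.85, and the UV21 values were 0.34, 0.61, 0.11, 0.21 and 0.42. The WT level was 1.04 ± 0.39 from 138 to 140 kb, on the outer side of the gene, 0.56 ± 0.26 from 142 to 144 kb, on its inner side, and 0.85 ± 0.21 in the next window (SD, n = 3). At the tRNA-Gly gene, 181.9 kb from the left end of chromosome 2, the WT means from 176 to 186 kb lay between −0.07 and 0.35, with no order from the outer to the inner side.

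In WT cells the zone carried low H3K9me2 at all 4 ends, and most at the right end of chromosome 1. The mean over its probes at 1R was 0.65, 0.51 and 0.98 in WT series 1, 2 and 3. At 1L it was 0.23, 0.25 and 0.34, at 2L 0.23, 0.22 and 0.26, and at 2R 0.27, 0.18 and 0.28. Series 3 gave the highest value at each end, and the 1R values did not overlap those of any other end. Compared with the outer 100 kb, where the WT means were 3.23 (1L), 3.77 (1R), 2.09 (2L) and 2.09 (2R), the zone thus kept a small remainder of the mark.

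On the fft3∆ arrays the zone lay near the array median at all 4 ends, below WT under this scaling but above WT at 1L, 2L and 2R under the pericentromeric scaling given below. The zone means in series 2 and 3 were −0.03 and −0.13 at 1L, −0.03 and −0.12 at 1R, −0.10 and 0.01 at 2L, and −0.06 and 0.01 at 2R. Both fft3∆ arrays lay below all 3 WT arrays at each end, and 1R, which stood above the other ends in WT, did not stand apart in fft3∆. The difference from WT was −0.79 at 1R, −0.35 at 1L, −0.28 at 2L and −0.27 at 2R. With normexp background correction it was −0.68 at 1R, −0.20 at 1L, −0.15 at 2L and −0.18 at 2R. On the linear scale the ratio was 1.73 times lower at 1R and 1.20 to 1.28 times lower at the others. The exact 2-sided permutation test over arrays gave p = 0.2 at each end, the smallest value that 3 arrays against 2 allow. Within protocol 1200 the differences were −0.27 (1L), −0.61 (1R), −0.33 (2L) and −0.28 (2R), and within the protocol of series 3, with 1 array a side, −0.47, −1.098, −0.25 and −0.27. Each was thus below 0 in both batches.

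These directions depend on what the arrays are scaled to. When each array was set to its own pericentromeric mean, which was 4.60 to 4.93 in WT, 4.27 and 4.03 in fft3∆ and 5.88 in UV21, every difference between fft3∆ and WT moved up by 0.62. The zone means of fft3∆ were then above WT at 1L (0.27), 2L (0.33) and 2R (0.35) and still below WT at 1R (−0.17). For that reason the zone was also set against the next 100 kb inward on the same array. No constant shift of a whole array on the log2 scale can move this difference, though other changes of processing can. That next stretch is not an unchanged reference. With arrays centred on their medians, fft3∆ differed from WT there by −0.07 (1L), −0.29 (1R), −0.17 (2L) and −0.14 (2R). The median over arm bins was −0.06. At 1R the reach of WT series 3, given below, also ends inside it. In WT the zone exceeded the stretch from 200 to 300 kb by 0.29 ± 0.03 at 1L, 0.59 ± 0.18 at 1R, 0.20 ± 0.01 at 2L and 0.24 ± 0.02 at 2R (SD, n = 3). All 3 WT arrays showed the excess at each end, with p = 0.25 by the exact 2-sided sign-flip test, the smallest that 3 arrays allow. In fft3∆ the excess was 0.09 and −0.07 at 1L, 0.16 and 0.04 at 1R, 0.10 and 0.07 at 2L, and 0.10 and 0.14 at 2R. Both fft3∆ arrays were below every WT array at each end also by this measure, by −0.49 at 1R, −0.28 at 1L, −0.12 at 2R and −0.11 at 2L (exact permutation p = 0.2 each). With normexp background correction the last 3 were −0.21, −0.14 and −0.09. At 2R an excess of 0.12 ± 0.03 remained in fft3∆ (SD, n = 2).

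**Figure D1:**
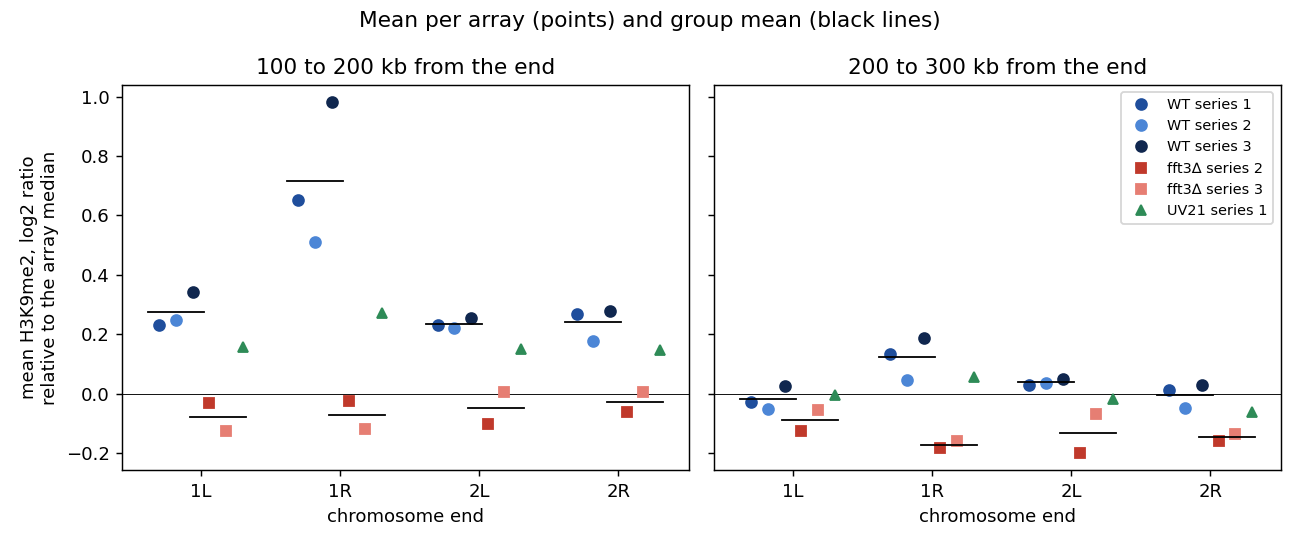
Mean H3K9me2 log2 ratio over the probes 100 to 200 kb (left) and 200 to 300 kb (right) from each end, 1 point per array, with black lines at the means of the 3 WT and 2 fft3∆ arrays. The WT points of 1R stand highest, at 0.51 to 0.98, and the fft3∆ points lie near 0 at all ends.

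With arrays centred on their medians, UV21 lay between the other strains at every end, while with scaling to the pericentromeric mean it lay below both. Its zone means were 0.16 (1L), 0.27 (1R), 0.15 (2L) and 0.15 (2R), which is below all 3 WT arrays and above both fft3∆ arrays at each end. The differences from WT were −0.12, −0.44, −0.09 and −0.09, with p = 0.5 by the exact 2-sided permutation test, the smallest that 3 arrays against 1 allow. Against WT series 1, which per the file headers is on the same slide, UV21 differed by −0.07 (1L), −0.38 (1R), −0.08 (2L) and −0.12 (2R). Set against the stretch from 200 to 300 kb, the excess of the UV21 zone was 0.16, 0.22, 0.17 and 0.21. That is below every WT array at each end, but at 2L and 2R the difference from the WT mean was only −0.03 and −0.04. With scaling to the pericentromeric mean the UV21 differences from WT moved by −1.11, to −1.22 (1L), −1.55 (1R), −1.19 (2L) and −1.20 (2R).

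Ends were compared within arrays, in 6 pairs. WT signal in the zone was higher at 1R than at 1L by 0.44 ± 0.19, than at 2L by 0.48 ± 0.22 and than at 2R by 0.47 ± 0.20 (SD, n = 3), in 3 of 3 arrays each (exact 2-sided sign-flip p = 0.25, 0.5 after adjustment over the 6 pairs). The remaining 3 pairs differed by 0.04 or less on average and in no common direction over the 3 arrays. In fft3∆ all 6 pairs differed by 0.05 or less on average. Single arrays differed by more: 1L minus 2L was 0.07 in series 2 and −0.13 in series 3. The fall was thus larger at 1R than at 1L, 2L and 2R by 0.43, 0.50 and 0.52, with an exact permutation p of 0.2 (0.4 after adjustment over the 6 pairs).

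Whole-cell extract DNA was compared as well. In the outer 100 kb, Cy3 signal was higher than in WT by 0.28 to 0.45 in fft3∆ and by 0.26 to 0.48 in UV21 (log2). WT series 3 had the lowest Cy3 signal of the WT arrays there, at each end. In the zone the difference of fft3∆ from WT was −0.03 (1L), 0.09 (1R), 0.09 (2L) and 0.03 (2R), beside falls of the ratio of −0.35, −0.79, −0.28 and −0.27. For UV21 the difference in the zone was −0.03 to 0.06. The part of Cy3 signal in the result was not tested.

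The inward profile was drawn in 10 kb bins counted from each end. At 1R, WT signal came down in a slope that crossed the whole zone. From 100 to 110 kb the WT arrays had 1.16, 0.95 and 1.92, from 130 to 140 kb 0.71, 0.50 and 1.09, and from 190 to 200 kb 0.15, 0.04 and 0.32. The fft3∆ arrays, at 0.09 and −0.06 from 100 to 110 kb, were already at the level of the arm at the outer edge of the zone. At 1L the WT profile was not a slope: it dipped to 0.24 ± 0.16 from 100 to 110 kb, stood at 0.67 ± 0.08 from 120 to 130 kb and at 0.47 ± 0.06 from 140 to 150 kb, and dropped to 0.02 ± 0.19 in the next 10 kb (SD, n = 3). At 2L, values of 0.42 ± 0.05 from 120 to 130 kb and 0.44 ± 0.04 from 150 to 160 kb stood over bins at 0.06 to 0.33. At 2R the highest bin was the outermost, at 0.62 ± 0.08, and the level then stayed between −0.02 and 0.39.

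**Figure D2:**
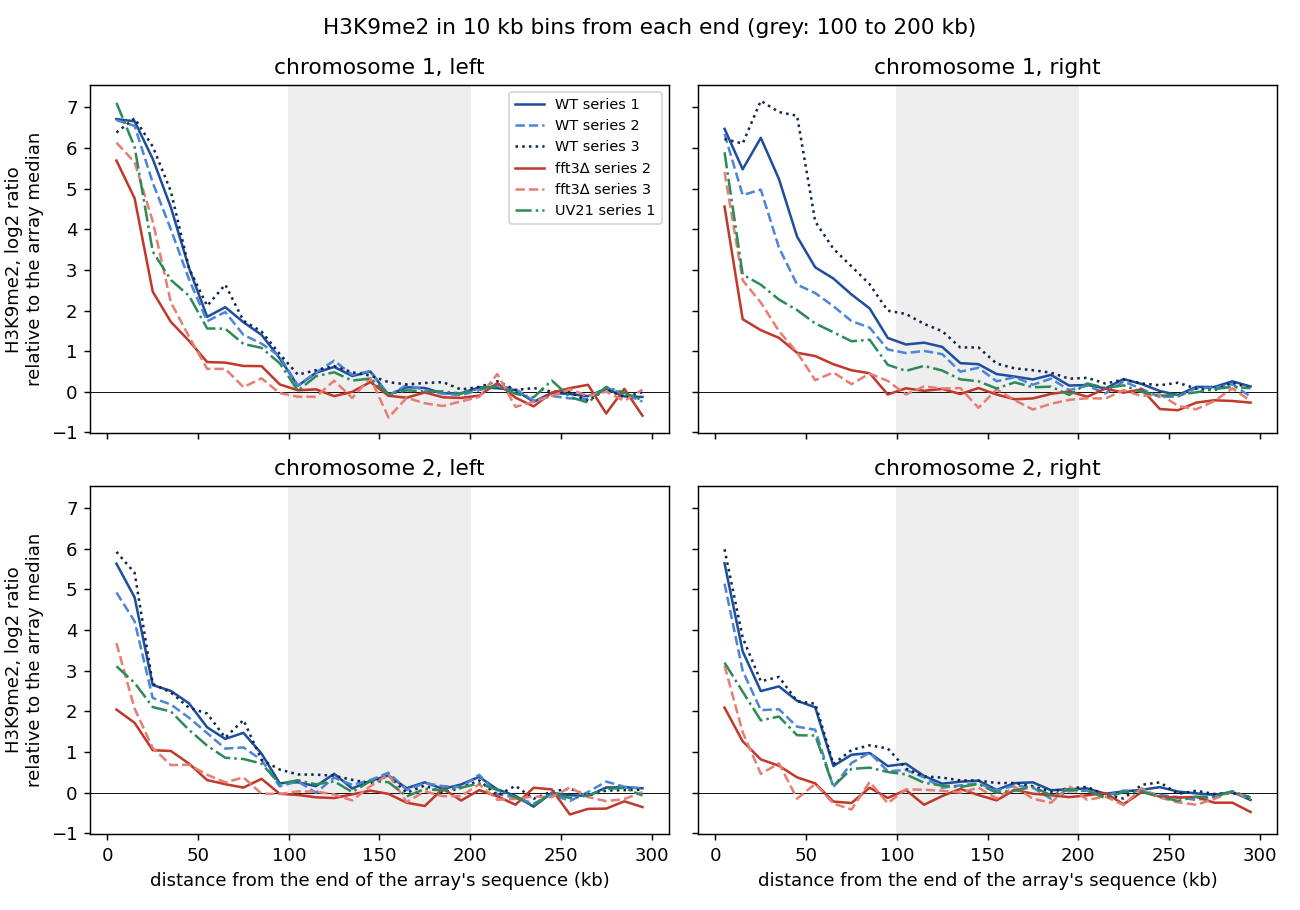
H3K9me2 log2 ratio in 10 kb bins against the distance from each end, 1 line per H3K9me2 array, with the zone in grey. WT (blue) slopes down through the whole zone at the right end of chromosome 1 and enters the zone at a low level elsewhere, fft3∆ (red) is near 0 from its outer edge on, and UV21 (green) runs between them, on arrays centred on their medians (scaling to the pericentromeric mean turns this order).

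Called in a limma fit over all 1271 bins of the array, 10 of the 40 zone bins were lower in fft3∆ at an adjusted p under 0.05, against 7.87% of all bins. They were 6 of 10 at 1R, 2 of 10 at 1L, and 1 of 10 each at 2L and 2R, so the shares at 2L and 2R are near that of the genome. At 1R the called bins began at 100, 110, 120, 140, 160 and 180 kb, with differences from −1.33 ± 0.28 (SE) at 100 kb to −0.58 ± 0.10 at 180 kb (adjusted p from 0.0172 to 0.0497). Those at 1L began at 110 and 130 kb, with −0.52 ± 0.09 and −0.51 ± 0.09 (adjusted p = 0.0234 for both). The one at 2L, from 120 kb, fell by 0.51 ± 0.08 (adjusted p = 0.0192) and the one at 2R, from 100 kb, by 0.55 ± 0.08 (adjusted p = 0.0172). With scaling to the pericentromeric mean 2 bins were lower and 2 higher, against 68 and 623 of all bins. With the protocol as a block 6 were lower, against 62 of all bins. With the series number as a replicate block 2 were lower, against 56. Without WT series 1 none of the 10 bins was called, while 4 and 6 of them were called without WT series 2 and 3. Without fft3∆ series 3, 2 bins were called, neither among the 10. Both fft3∆ arrays were below every WT array in 35 of the 40 zone bins, against 36.6% of all bins. That count was 10 of 10 at 1L and at 1R, 7 at 2L and 8 at 2R.

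Reach was measured per array as the distance from the end over which every 10 kb bin stayed above the 95th percentile of the 754 bins of the chromosome arms of that array. This level was 0.15 to 0.19 on the 6 arrays, and it moves with the array, so that scaling cannot change the reach. In WT series 1, 2 and 3 the mark reached 190, 170 and 240 kb at 1R, 100, 100 and 160 kb at 1L, 110, 90 and 160 kb at 2L, and 150, 60 and 170 kb at 2R. Series 3 reached farthest at each end, and 1R was the end with the farthest reach on each WT array. In fft3∆ it reached 90 and 100 kb at 1R, 100 and 70 kb at 1L, 70 and 80 kb at 2L, and 60 and 40 kb at 2R. The fft3∆ reach ended at or before the outer edge of the zone at all 4 ends, while at 1R every WT array passed through most of it. The groups did not overlap at 1R and 2L, and they met at 100 kb at 1L and at 60 kb at 2R. With normexp they did not overlap at 1L, 1R and 2R but met at 90 kb at 2L. There fft3∆ series 2 reached 110 kb at 1L, past the outer edge of the zone. The groups also met at 90 kb at 2L when Cy5 had to be well above background too.

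For UV21 the reach was 150 kb at 1R, below all 3 WT arrays and above both fft3∆ arrays. It was 100 kb at 1L, 130 kb at 2L and 60 kb at 2R, within the range of WT at each. A single bin under the level ends a run, so the same arrays were also counted bin by bin. Of the 40 zone bins, 26, 21 and 31 were above the level in WT series 1, 2 and 3, 19 in UV21, and 1 and 3 in fft3∆ series 2 and 3. By construction 5% of arm bins are above it, and the fft3∆ shares, 2.5% and 7.5%, lay on either side of that. At 1R alone the counts were 9, 8 and 10 of 10 in WT, 6 in UV21 and 0 in both fft3∆ arrays.

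**Figure D3:**
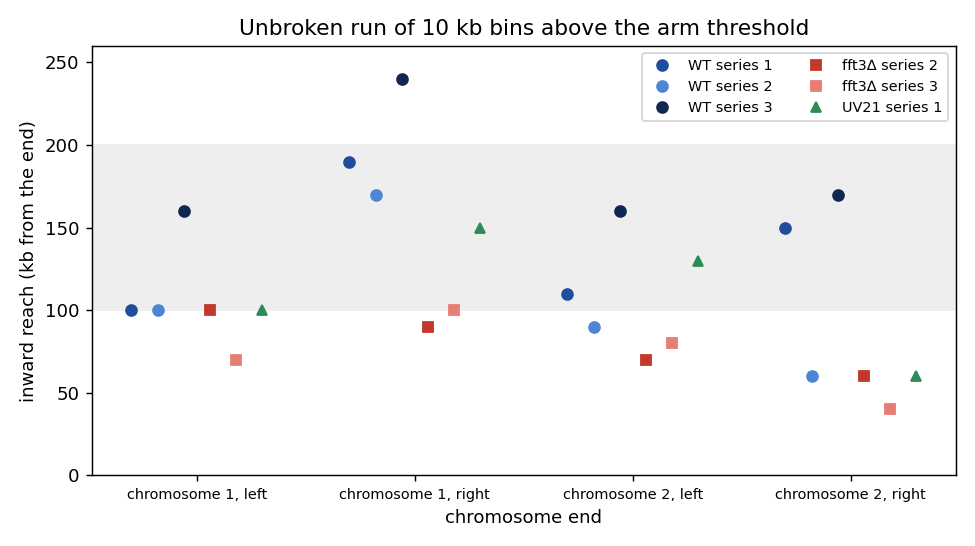
Inward reach in kb from each end, 1 point per array, with the zone in grey. WT series 3 is highest at every end, the fft3∆ squares lie at or below 100 kb, and UV21 lies at 150 kb at the right end of chromosome 1.

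At 2 kb resolution, 328 of 6187 windows were called lower in fft3∆ (5.30%) and 3 higher (0.0485%). The zone held 200 windows, of which 15 were lower and 0 higher. The right end of chromosome 1 had 13 of 50, and 1L had 1, 2L had 1 and 2R had 0 of 50. At an unadjusted p under 0.05 limma gave 38 lower windows at 1R, 13 at 1L, 16 at 2L and 13 at 2R, against 16.8% of all windows. The share at 1R is above that of the genome on both counts, and those of 1L, 2L and 2R are below it on the first and above it on the second. Without WT series 1 or WT series 3, 4 windows of the zone were called, and without fft3∆ series 2, 34. With scaling to the pericentromeric mean 2 windows were lower and 5 higher, against 215 and 1137 of all windows. The median difference was −0.79 at 1R, −0.35 at 1L, −0.29 at 2L and −0.19 at 2R, against −0.10 over all windows and −0.04 over the windows of the arms. Both fft3∆ arrays lay below every WT array in 41 of 50 windows at 1R, in 25 at 1L, in 25 at 2L and in 19 at 2R, against 27.5% of all windows.

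Of the 13 called windows at 1R, 8 lay within 130 kb of the end. The largest fall was at 106 to 108 kb (chromosome 1, 5466600 to 5468599), in the gene gto1, where WT had 1.56, 1.25 and 2.15, fft3∆ −0.06 and 0.08, and UV21 0.76. It fell by 1.64 ± 0.27 (SE), with the groups far apart. The innermost called window was at 180 to 182 kb (5392600 to 5394599), at vps51. There WT had 0.14, 0.32 and 0.08 and fft3∆ −0.64 and −1.08, so that the fall of 1.04 ± 0.19 started from a low WT level and ended well below the array median. The same holds at 2L for the called window at 122 to 124 kb (chromosome 2, 122001 to 124000), with 0.38, 0.15 and 0.35 in WT, −0.75 and −1.03 in fft3∆ and 0.42 in UV21. At 1L the window at 120 to 122 kb (chromosome 1, 120001 to 122000) went from 0.80, 0.68 and 0.55 to −0.05 and −0.35, with 0.57 in UV21.

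The windows with the most WT signal were at 110 to 112 kb at 1R (1.71 ± 0.56), 106 to 108 kb at 2R (0.95 ± 0.10), 158 to 160 kb at 2L (0.89 ± 0.06) and 128 to 130 kb at 1L (0.74 ± 0.16; SD, n = 3). Of these the one at 1R was called lower. The others were not called. In fft3∆ the window at 2L had 0.44 and 0.41 and that at 2R 0.32 and 0.68, while that at 1L had −0.12 and 0.49, where the arrays disagree. The edges of the zone fall within the WT slope and mark no step that all ends share. The WT means of the 2 kb just outside and just inside 100 kb were 0.65 and 0.57 at 1L, 0.93 and 1.35 at 1R, 0.44 and 0.18 at 2L, and 0.49 and 0.45 at 2R. Just inside and just outside 200 kb they were 0.23 and 0.07, 0.29 and 0.32, −0.02 and 0.37, and 0.01 and 0.01.

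**Figure D4:**
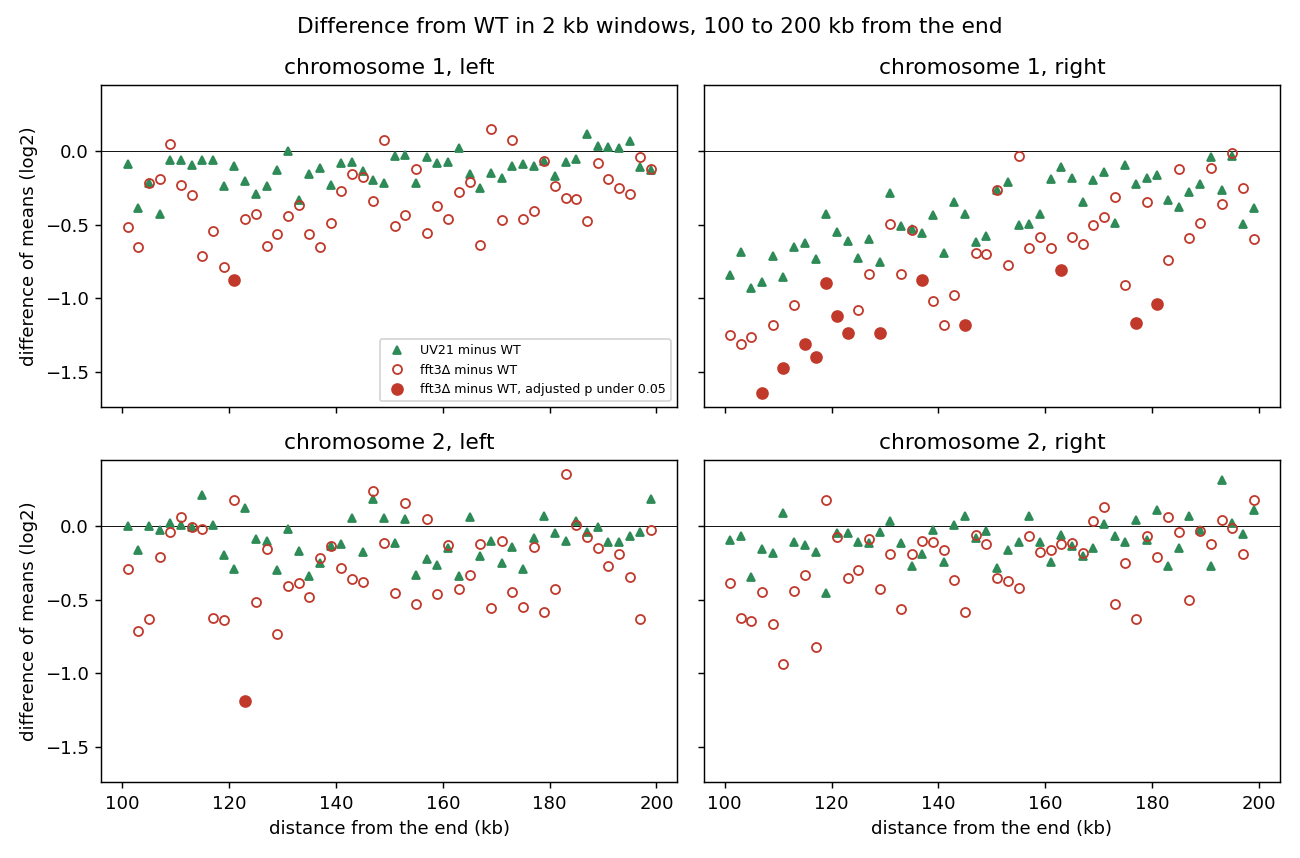
Difference from the WT mean in each 2 kb window of the zone, for fft3∆ (circles, filled where the limma adjusted p is under 0.05) and UV21 (triangles). At the right end of chromosome 1 the window at 106 to 108 kb fell by 1.64 in fft3∆, and 13 circles are filled, the innermost at 180 to 182 kb.

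For UV21 the fit called 0 of the 200 zone windows lower, against 0% of all windows. At an unadjusted p under 0.05 it gave 6 at 1R and 0 at the other ends, against 2.73% of all windows. Of the 40 bins it called 0, against 0.0787% of all bins, and 2 at an unadjusted p under 0.05, both at 1R, against 3.78%. As a group-wise count, UV21 was below every WT array in 43 of 50 windows at 1R, in 23 at 1L, in 21 at 2L and in 20 at 2R, against 24.3% of all windows. In bins of 10 kb it was so in 28 of 40, 10 of them at 1R, against 28.7%. Compared directly, fft3∆ was lower than UV21 in 0 of the 200 zone windows at an adjusted p under 0.05, against 0.808% of all windows, and in 14 at an unadjusted p, against 10.6%. Both fft3∆ arrays lay below UV21 in 119 of the 200 windows, 38 of them among the 50 at 1R, against 41.3% of all windows.

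Genes of the zone were read from a fit over 4813 genes with at least 2 probes, of which 6.19% were lower in fft3∆. Of the 155 zone genes, 20 were lower and 0 higher. Of these, 14 were among the 33 genes at 1R, 3 among the 45 at 1L, 1 among the 34 at 2L and 2 among the 43 at 2R. Both fft3∆ arrays lay below every WT array in 28 genes at 1R, 21 at 1L, 14 at 2L and 25 at 2R, against 28.0% of all genes. The median difference of the 155 genes was −0.36, against −0.11 over all genes tested. Without WT series 1 none of the 20 was called, and without WT series 3 only 1, while 7 were called without WT series 2 and 33 without fft3∆ series 2. With scaling to the pericentromeric mean 4 genes were lower and 4 higher, against 152 and 1022 of all genes. With normexp 11 were lower, against 220 of all genes, and with the protocol as a block 12, against 196. The 12 largest falls kept their direction under all 16 alternatives run. That is no support, since they were picked for their size on these same arrays. Of these 12 genes, 12 lost the call without WT series 1 and 11 without WT series 3.

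All 10 genes between 100 and 130 kb from the right end of chromosome 1, a limit chosen after their values were seen, were lower in fft3∆. From the outside inward they are SPAC922.03, gto1, isp5, SPAC1039.08, SPAC1039.07c, SPAC1039.06, klf1, SPAC1039.04, SPAC1039.03 and SPAC1039.02. Their WT means lay between 1.001 and 1.88, their fft3∆ means between −0.29 and 0.43 and their UV21 values between 0.44 and 0.99. That the WT and fft3∆ ranges do not overlap follows from the choice, since all 10 were called on this difference. The genes are neighbours on the same arrays, not replicates. With arrays centred on their medians, the UV21 range lies between those of WT and fft3∆. Cy3 signal of the called genes at 1R differed between fft3∆ and WT by −0.37 to 0.28. By annotation the block holds enzymes of amino acid and sugar metabolism, membrane transporters and a transcription factor.

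Most WT signal in the zone was found over isp5, which encodes an amino acid transporter of the plasma membrane (probes 5462400 to 5463900). Its WT values were 1.78, 1.46 and 2.39, those of fft3∆ 0.67 and 0.18, and that of UV21 0.99. The 2 fft3∆ arrays were below UV21 and UV21 below every WT array. Between fft3∆ and WT the difference was −1.45 ± 0.29 (SE, limma adjusted p = 0.0375), with −0.95 within protocol 1200 and −2.21 within that of series 3. With the protocol as a block the adjusted p was 0.0691.

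SPAC922.03, annotated as an aminocyclopropane-carboxylate deaminase, had the largest fall (probes 5472600 to 5473200). WT had 1.51, 1.25 and 2.44, fft3∆ 0.01 and 0.25, and UV21 0.80. It fell by 1.60 ± 0.34 (SE, limma adjusted p = 0.0421). Next to it gto1, an alpha-glucosidase with 11 probes (5466900 to 5470200), went from 1.45, 1.36 and 2.23 in WT to 0.27 and 0.12 in fft3∆, with 0.77 in UV21. Its fall of 1.48 ± 0.28 was called at an adjusted p of 0.0286. For both genes WT series 3 is the high array, and the fft3∆ arrays lie far below the lowest WT array.

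SPAC1039.08, a serine acetyltransferase, fell by 1.46 ± 0.24 (SE, limma adjusted p = 0.019). Its WT values were 1.02, 0.99 and 1.51, and it was −0.56 and −0.01 in fft3∆. Its neighbour SPAC1039.06, annotated with D-serine ammonia-lyase activity, had the smallest adjusted p of the zone, 0.0118, with 1.17, 1.01 and 1.38 in WT against 0.04 and −0.22. In both genes the fft3∆ arrays lie far below the lowest WT array. Between them SPAC1039.07c, an alanine-glyoxylate transaminase, fell by 1.26 ± 0.27 (adjusted p = 0.0451). The phosphatase gene SPAC1039.02 fell by 1.14 ± 0.20 (adjusted p = 0.0226), from 1.33, 1.30 and 1.80 to 0.36 and 0.30, and it had 0.70 in UV21. For the transporter gene SPAC1039.04 the fall was 1.103 ± 0.23 (adjusted p = 0.0417). klf1 encodes a zinc-cluster transcription factor. It had 1.29, 1.03 and 1.504 in WT, 0.15 and 0.30 in fft3∆ and 0.71 in UV21, and it fell by 1.05 ± 0.19 (adjusted p = 0.0247).

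Farther in at the same end, 4 of the 23 genes from 130 to 200 kb were called. pgt1 encodes a glutathione transporter, mtq1 a methyltransferase, spd1 an inhibitor of ribonucleotide reductase and vps51 a subunit of the GARP tethering complex. mtq1 went from 0.28, 0.40 and 0.63 in WT to −1.09 and −0.64 in fft3∆, with 0.27 in UV21. vps51, with only 2 probes, went from 0.15, 0.43 and −0.02 to −0.87 and −1.37, with 0.17 in UV21. In both, UV21 is within or just below the WT range while fft3∆ lies well below the array median. The falls were 1.30 ± 0.20 for mtq1 (limma adjusted p = 0.0156) and 1.31 ± 0.22 for vps51 (adjusted p = 0.019). trs33 at 1L, a subunit of the TRAPP complex 182.3 kb from the end, is alike: 0.17, 0.18 and 0.72 in WT, −0.94 and −0.89 in fft3∆ and 0.08 in UV21, a fall of 1.27 ± 0.21 (adjusted p = 0.0184).

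The other called genes of 1L are SPAC11D3.06, a transporter of the MatE family, and toe4, a transcription factor gene whose probes partly overlap it. SPAC11D3.06 had 0.60, 0.51 and 0.49 in WT, −0.41 and −0.52 in fft3∆ and 0.35 in UV21, and it fell by 0.999 ± 0.15 (SE, limma adjusted p = 0.014). toe4 fell by 0.81 ± 0.14 (adjusted p = 0.0247). The 3 genes with most WT signal at 1L were not called: mfs2 had 0.91, 0.72 and 1.08 in WT and 0.45 and 0.08 in fft3∆ (adjusted p = 0.12), SPAC11D3.08c 0.81 ± 0.18 in WT, and SPAC11D3.18c 0.75 ± 0.11 (SD, n = 3), with 0.36 and 0.67 in fft3∆ for the last.

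On chromosome 2 the called genes were fmd2 at 2L, a formaldehyde dehydrogenase (−0.74 ± 0.15, SE), and at 2R rpc40, a subunit of RNA polymerases I and III (−0.78 ± 0.16), and tma22, a mitochondrial translation initiation factor (−0.96 ± 0.18), with limma adjusted p of 0.0383, 0.0406 and 0.0308. None of these was among the genes with most WT signal there. Those were pfl7, a cell-surface glycoprotein gene, SPBC359.01, an amino-acid permease gene, and the maltase gene mal1 at 2L, and adn2, the splicing factor gene spf38 and the mitochondrial import gene tim21 at 2R. pfl7 had 0.63, 0.69 and 0.996 in WT and 0.10 and 0.03 in fft3∆ (adjusted p = 0.0631). adn2 kept 0.40 and 0.63 in fft3∆, against 1.05, 0.78 and 0.96 in WT (adjusted p = 0.233), and SPBC359.01 kept 0.61 and 0.37 against 0.64, 0.73 and 0.74 (adjusted p = 0.515). So on chromosome 2, as at 1L, the strongest WT genes of the zone did not pass the test, while at 1R the 3 strongest did. Whether the ends differ in this was not tested.

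**Figure D5:**
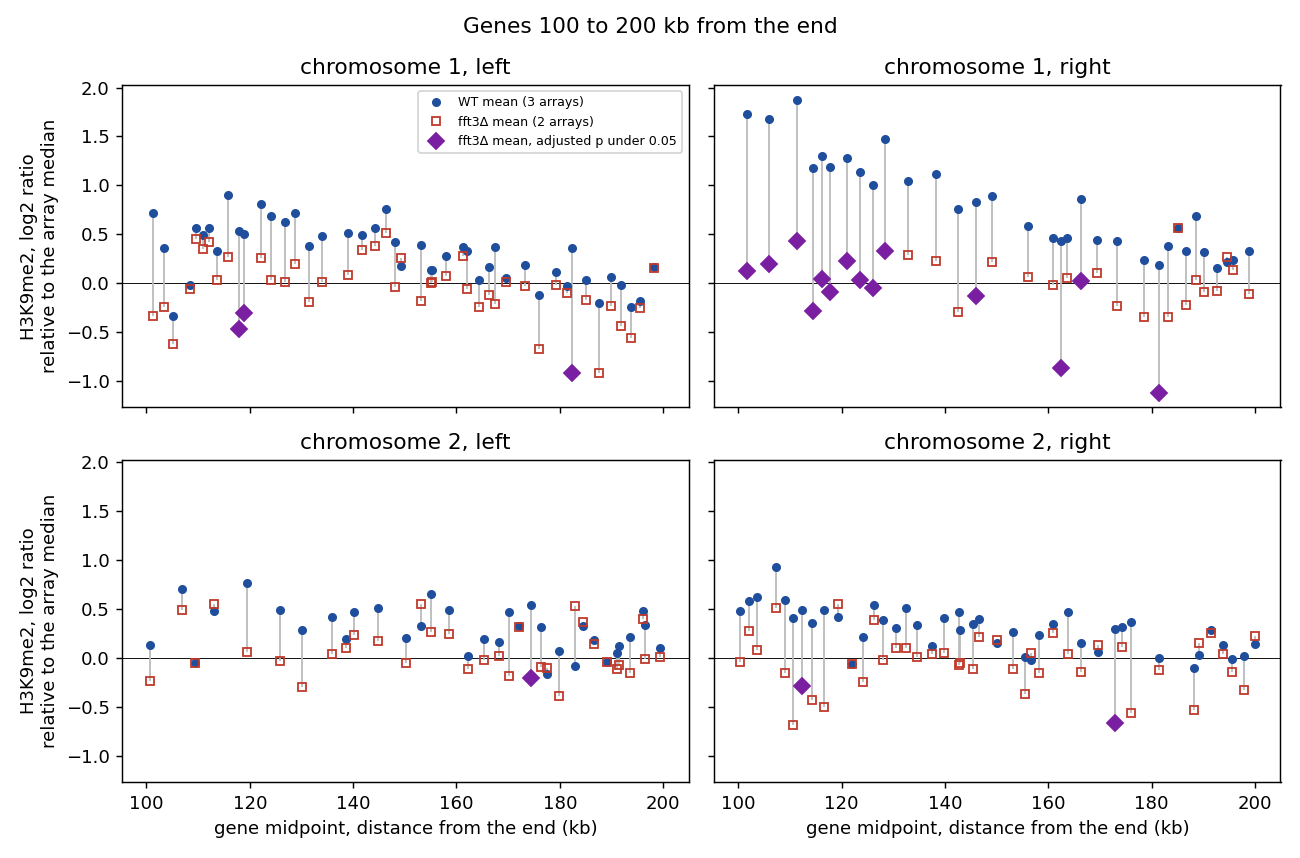
H3K9me2 log2 ratio of each zone gene against the distance of its midpoint from the end, with WT means as blue dots and fft3∆ means as squares, or as purple diamonds where the limma adjusted p is under 0.05. At the right end of chromosome 1 all 10 genes from 100 to 130 kb are called, and WT dots there stand between 1.001 and 1.88.

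For UV21 the gene fit called 0 of the 155, against 0% of all genes, and at an unadjusted p under 0.05 it gave 6, all at 1R, against 2.45%. The 5 largest differences were those of SPAC922.03 (−0.94), gto1 (−0.91), isp5 (−0.89), SPAC1039.07c (−0.79) and SPAC1039.02 (−0.78), all in the block at 1R that also fell in fft3∆. Both contrasts share the WT arrays.

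Of the gene groups listed for this work, transporters are the one with several members in the zone. There are 14 with the word transporter in their product name, of which 4 were lower in fft3∆ and 0 higher, against 20 of the 155 zone genes and 6.19% of all genes. The 4 are isp5, SPAC1039.04 and pgt1 at 1R, where 14 of all 33 genes were called, and SPAC11D3.06 at 1L. The word leaves out 4 amino-acid permease genes, SPAC11D3.08c, SPAC1039.01, SPBC359.01 and aat1, none of which was called. The 14 transporter genes had a median difference of −0.51, against −0.36 for all zone genes, and a median WT mean of 0.51, against 0.35. Of 24 listed genes of the heterochromatin machinery 1 lies in the zone, chp2 at 2R, which encodes a chromodomain protein of the HP1 family. It had 0.18, 0.36 and 0.16 in WT and 0.24 and −0.55 in fft3∆, so that the groups overlap, and it did not pass the test (−0.39 ± 0.25, SE, limma adjusted p = 0.462). None of 13 Mmi1-target genes, 9 shelterin and telomere genes and 3 genes of the Fun30 family lies there, and 1 gene with a meiotic symbol does, which was not called.

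Fft3-GFP signal over the zone lay at the array median on its single array. The zone means were −0.02 (1L), −0.00 (1R), 0.01 (2L) and 0.01 (2R), and single windows ran from −0.42 to 0.75. At 1R, the end with the largest fall, the median window was at −0.01. The highest zone genes were the transporter genes SPBPB10D8.07c (0.78) and pho841 (0.75), both at 2L, and mfs2 at 1L (0.75), none of which passed the test in fft3∆. Over the 200 windows the correlation of Fft3-GFP with WT H3K9me2 was −0.06 and with the difference between fft3∆ and WT 0.03 (Pearson, a description over windows of the same arrays). A single array gives no measure of error.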

How the data were processed

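Scanner files of 7 arrays were used (3 WT, 2 fft3∆, 1 UV21, 1 Fft3-GFP). Per the file headers they hold spot intensity values and the log10 ratio of red over green, made with Agilent Feature Extraction 12.0.3.1 (WT 1, WT 2, UV21, Fft3-GFP), 10.7.3.1 (fft3∆ 2) and 11.5.1.1 (WT 3, fft3∆ 3). The authors' deposited value table holds a processed ratio per probe, with a correlation of 1 with the scanner ratios. Its values and the genome build are otherwise not explained in the sources used here. All arrays carry ChIP DNA in Cy5, with no dye swap.

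From these, log2 ratios of the processed intensity values, which the authors deposited already background-subtracted and dye-normalized per the file headers, were centred on the median of each array. Probes marked as non-uniform on any of the 6 H3K9me2 arrays, or not well above background in Cy3, were left out. Saturated probes were kept. Probes were averaged over 2 kb windows (at least 3 probes), 10 kb bins and protein-coding genes (at least 2 probes), and tested with limma 3.58.1 (R 4.3.3) over all features, calling features with a Benjamini-Hochberg adjusted p under 0.05. Zone means were compared with exact 2-sided permutation tests. Extraction protocol coincides with scanner model among the H3K9me2 arrays, so these 2 cannot be told apart. Python 3.11.15, numpy 2.4.6 and pandas 2.3.3 did the rest. The fit was tested on simulated data.

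Named genes are, at each end, the 3 with the highest WT mean, up to 12 called genes with the largest change per contrast (or the 5 largest where fewer than 5 pass), the 3 highest in Fft3-GFP, and members of fixed lists. Other called genes were named after their values were seen. The zone, its lists and its tests were chosen with earlier results of these data known. Series numbers were not used as pairs in the main fit. The deviations of same-numbered WT and fft3∆ arrays correlated at 0.001 (series 2) and −0.036 (series 3) over 6187 windows. With only 2 fft3∆ arrays these values cannot show that pairing is absent. Same-numbered arrays do share handling: WT and UV21 of series 1 a slide, and WT and fft3∆ of series 3 an extraction protocol. Alternatives covered scaling, background correction (normexp with an offset of 50, on median spot signals, since the files used here hold no mean signal), filters, window sizes, blocks and each array left out. The number of arrays limits the precision. One upstream sequence, at 2L, is not reported here.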

Additional observations from a re-analysis of the deposited data

How the results depend on the processing

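Of 704 alternative values of the zone results, 612 kept their direction and side of the threshold, or stayed within the spread. Some of the 704 could not have changed, so this count is no measure of robustness. The deposited ratios are those of the scanner files, and scaling cannot move the reach or the zone minus the next 100 kb. Scaling to the pericentromeric mean changed most. The difference of the zone mean from WT became, for fft3∆, 0.27 (1L), −0.17 (1R), 0.33 (2L) and 0.35 (2R), reversed at all ends but 1R, and for UV21 −1.22, −1.55, −1.19 and −1.20. It called 2 windows lower and 5 higher in fft3∆, 200 lower in UV21, and 197 higher in fft3∆ than in UV21. Over all 6187 windows these counts were 215, 1137, 5791 and 5817, in the same order. In bins it gave 2 lower and 2 higher in fft3∆, 40 lower in UV21 and 40 higher in fft3∆ than in UV21. Over all 1271 bins these counts were 68, 623, 1247 and 1219. In genes it gave 4 lower and 4 higher in fft3∆ and 155 lower in UV21. Over all 4813 genes these were 152, 1022 and 4535. This follows from the shift of 0.62 and −1.11. For the changes below the cause was not tested. Windows of 5 kb gave 18 called lower of 80 in the zone, against 199 in the genome. With the software log ratio, or without saturated probes, 1 window was lower in fft3∆ than in UV21, against 121 and 93 in the genome. Without saturated probes the reach was 163 kb for WT at 1L and 150 kb for UV21 at 2R. The replicate block pairs arrays by a shared series number only. It gave 2 called bins, 20 windows and 21 genes, against 56, 422 and 346 in the genome. The difference of UV21 from WT in zone minus next 100 kb was then −0.10 at 1L. The protocol block gave 6 bins and 12 genes, against 62 and 196 in the genome. Its difference of the UV21 zone mean from WT was −0.065 at 2L. Bins of 20 kb gave 8 called lower of 20 in the zone, against 69 in the genome. They gave a WT reach of 180 (1L), 233 (1R), 200 (2L) and 180 kb (2R) and a UV21 reach of 160, 180, 160 and 140 kb. With normexp 11 genes were called, against 220 of all genes. The differences of zone means from WT were then −0.20 (1L), −0.15 (2L) and −0.18 (2R) for fft3∆ and −0.067 (2L) for UV21. Those of zone minus next 100 kb from WT were −0.21 (1L), −0.093 (2L) and −0.14 (2R) for fft3∆ and −0.10 (1L) for UV21. The reach with normexp was 90 kb at 2L for both WT and UV21 and 150 kb at 2R for UV21. In fft3∆ series 2 it was 110 kb at 1L and 90 kb at 2L. Medians of probes gave differences from WT of −0.27 (1L), −0.23 (2L) and −0.21 (2R) for fft3∆ and −0.11 (2L) for UV21. With non-uniform spots kept, the difference of fft3∆ from WT in zone minus next 100 kb at 1L was −0.25, and the UV21 reach at 2R was 130 kb. Allowing 1 gap gave a reach of 163 kb for WT at 1L, and for UV21 150 kb (1L), 160 kb (2L) and 130 kb (2R). At the 99th percentile WT reached 157 kb (1R) and 90 kb (2L) and UV21 90 kb (2L). At a threshold of 0.5 WT reached 153 kb and fft3∆ 65 kb at 1R, and UV21 90 kb at 2L. Bins of 5 kb gave 60 kb for fft3∆ at 1R and 90 kb for UV21 at 2L.

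Leaving out 1 array at a time, a lone fft3∆ array being assumed to vary like the others, called 4 to 34 windows lower and 0 to 2 higher in fft3∆, 0 to 9 bins lower, and 0 to 33 genes lower and 0 to 1 higher. Against UV21 it called 0 to 6 windows lower and 0 to 1 higher. The differences of zone means from WT ran for fft3∆ from −0.40 to −0.30 (1L), −0.89 to −0.65 (1R), −0.34 to −0.23 (2L) and −0.30 to −0.23 (2R), and for UV21 from −0.14 to −0.08, −0.54 to −0.31, −0.09 to −0.08 and −0.12 to −0.07. The differences from WT in zone minus next 100 kb ran for fft3∆ from −0.36 to −0.20, −0.56 to −0.39, −0.12 to −0.10 and −0.15 to −0.10, and for UV21 from −0.15 to −0.12, −0.44 to −0.28, −0.04 to −0.03 and −0.04 to −0.03. The reach in WT ran from 100 to 130, 180 to 215, 100 to 135 and 105 to 160 kb, and in fft3∆ from 70 to 100, 90 to 100, 70 to 80 and 40 to 60 kb. Zone probes had a median Cy3 signal of 18.0 to 192 and a Cy5 signal of 23.0 to 113 times background on the 7 arrays.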
